A study of Mus musculus with 6 samples.

Results

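The 41 genes described here encode the core machinery of autophagy and its mitochondrial branch, mitophagy, and were found by symbol among the 17067 genes of the deposited tables. The list was split by role into 15 genes of initiation and nucleation, 16 of the conjugation systems, 5 cargo receptors, 4 mitophagy factors and Epg5, a tether. Transcripts were measured in colon macrophages of C57BL/6 mice aged 10 weeks, taken by flow sorting through a CD45+CD11b+F4/80+ gate. All mice had colitis induced with dextran sulfate sodium (DSS), so the control group is inflamed as well, and neither group was without DSS. The 3 wild-type (WT) samples were compared with 3 samples from mice that lack Gsdmd (Gsdmd-/-), the gene of gasdermin D, the pore-forming protein of pyroptosis. The labels give no more on the Gsdmd allele. How many mice gave each sample, and whether the samples of a group are different mice, is not in the labels. The p-values below therefore measure only the spread among these samples, part of which may be technical.

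In autophagy a double membrane grows around a portion of cytoplasm and delivers it to the lysosome. The ULK kinase complex starts the process, a lipid kinase complex marks the membrane with a phosphoinositide, and 2 ubiquitin-like conjugation systems attach proteins of the ATG8 family (LC3 and GABARAP) to the growing membrane. Cargo receptors then link selected cargo to the ATG8 proteins, and mitophagy factors mark mitochondria for removal. In macrophages autophagy is known for degrading microbes and damaged mitochondria and for restraining inflammasome activity and interleukin-1 release.

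Values are FPKM, fragments scaled by transcript length and by the library's total. Low values move in whole-fragment steps, from which each library was estimated to hold 20200000 to 20700000 fragments. The targeted gene, Gsdmd, gave 97.4 to 99.4 FPKM in WT samples and 28.5 to 29.7 FPKM in Gsdmd-/- samples. All 10 markers of macrophages passed the filter on low values, with a summed level of 8519 to 9043 FPKM in WT and 9585 to 9692 FPKM in Gsdmd-/- samples. Of them 4 rose and 5 fell as deposited, and 1 rose and 8 fell with the trend removed. In both forms the 3 genes of the sorting gate fell: Ptprc (CD45) from 92.4 ± 4.73 to 57.9 ± 2.50 FPKM, Itgam (CD11b) from 177 ± 3.24 to 91.3 ± 4.07 FPKM and Adgre1 (F4/80) from 291 ± 4.29 to 216 ± 5.67 FPKM. The summed level of 10 fibroblast markers ran from 32.9 to 34.4 FPKM in WT and from 88.6 to 90.6 FPKM in Gsdmd-/- samples. Of the 7 of them that could be tested all 7 rose, and none of the 10 was at 0 in every sample. Summed markers of neutrophils ran from 31.2 to 35.4 FPKM in WT and 40.8 to 44.5 in Gsdmd-/- samples, those of T and NK cells from 49.8 to 52.7 and 34.3 to 35.7, and those of endothelium from 62.7 to 66.9 and 34.2 to 39.9. One gene carried most of each of these 3 sums. For neutrophils it was Csf3r, which rose from 29.6 ± 1.56 to 37.5 ± 0.880 FPKM, and 7 markers of that list were under the filter. In the other 2 it fell, Il7r from 45.5 ± 1.22 to 25.2 ± 0.697 FPKM and Kdr from 56.4 ± 1.59 to 26.2 ± 2.30 FPKM. Cd4 and Lck of the T and NK cell list and Plvap of the endothelial list rose. Cdh5 and Vwf did not pass as deposited and rose with the trend removed, by 0.25 and 0.24. Summed markers of epithelium stayed at or under 3.48 FPKM in all samples. Their part in the results below was not tested. Across all genes, the difference between the groups also followed transcript length and GC content, and a smooth function of the pair accounted for 51.1% of the variance in log2 change. The trend separates WT from Gsdmd-/- samples, so it cannot be told apart from genotype in this design, and each change below is given with and without it where the trend matters.

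All 41 members passed the filter on low values (1 FPKM or more in 3 or more of the 6 samples), with levels from 1.09 FPKM for Atg16l2 to 719.7 FPKM for Gabarap. A gene is said to have risen or fallen where the limma test on log2(FPKM + 1), a scale that understates the change of low genes, adjusted over all 10005 genes tested, gave a p under 0.05, and changes are given as log2 differences, Gsdmd-/- minus WT, on that scale. As deposited, 16 members rose and 15 fell, 39.02% and 36.6% of the list, where 40.6% of all tested genes rose and 36.9% fell, 77.5% together. The list as a whole was therefore near the background in both directions. Its median log2 change was 0.023 beside 0.027 over all genes tested, and no member changed 2-fold. After removal of the trend, 15 members rose and 9 fell, where 30.4% of all genes rose and 30.1% fell, 60.5% together. Rescaled to TPM, which gives each sample the same total and moved the median change of all genes to -0.17, 6 members rose and 23 fell, with 25.0% and 51.0% of all genes (76.0% together). In bulk samples of this kind, fewer cells that express a gene and less of its RNA per cell cannot be told apart.

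Some calls held on each of the 5 scales tried (as deposited, TPM, median-ratio, and trend removed with the median or the longest transcript). Gabarap and Map1lc3b of the ATG8 coat, the protease gene Atg4b and the cargo receptor gene Tax1bp1 rose on all 5. Ulk2 of the initiating kinase, Pik3r4 of the lipid kinase complex, the protease genes Atg4a and Atg4c, and the mitophagy receptor gene Bnip3 fell on all 5. Apart from Pik3r4, these genes had the same call in each of the 15 alternatives, leaving out each sample included, except that Ulk2 and Atg4c did not enter the fit with the stricter filter. Pik3r4 was not called with the replicate number as a block and the trend removed (adjusted p = 0.0569). The share of all tested genes whose call held on all 5 scales, or in all alternatives, was not computed. Whether the members held their calls more often than other genes is therefore not known. For 14 members every Gsdmd-/- sample was above every WT sample and for 15 every one was below, 70.7% of the list together, where 41.2% of all tested genes were higher without overlap, 38.3% lower and 79.4% either.

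**Figure D1:**
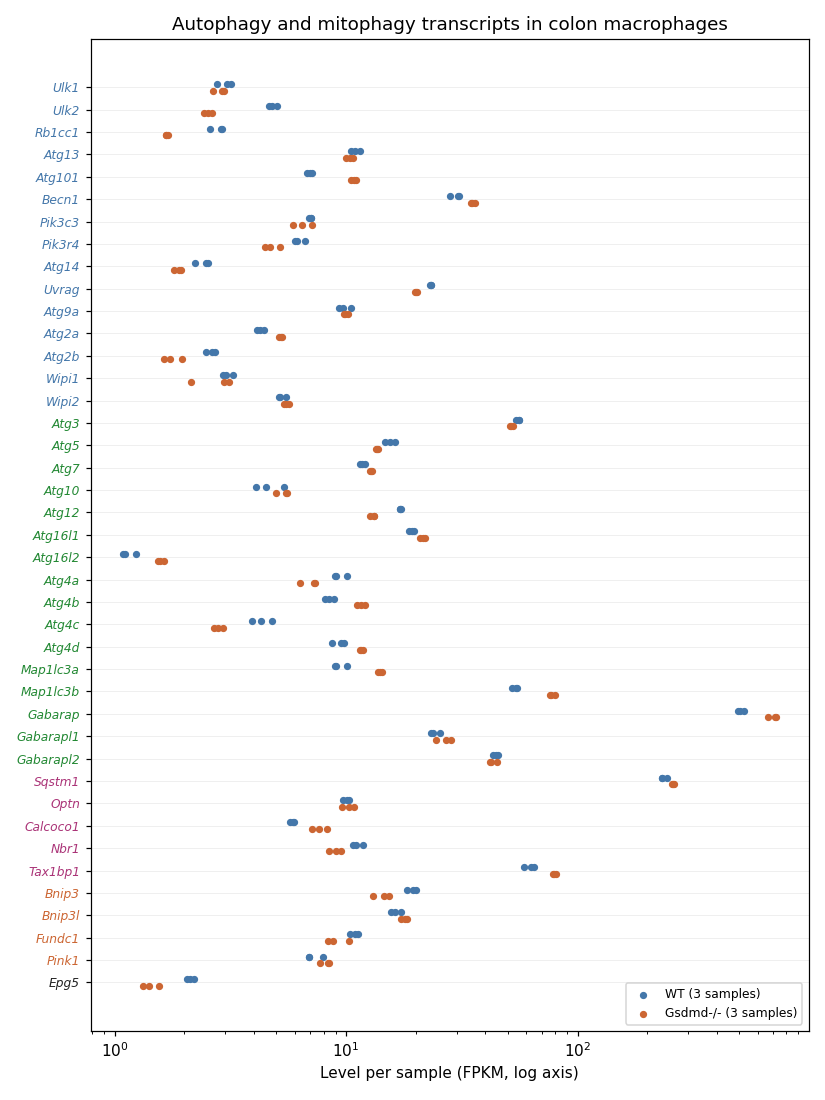
Level of each of the 41 genes in each sample, in FPKM on a log axis, with WT samples in blue and Gsdmd-/- samples in orange, 3 points each. Gene names are coloured by role (blue initiation, green conjugation, purple receptors, orange mitophagy, black Epg5). Gabarap lies highest, near 507 FPKM in WT, and Sqstm1 next. For 29 genes the points of the groups do not overlap, where 79.4% of all tested genes do not.

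The ULK complex, the kinase that starts autophagosome formation, was uneven. Ulk2, the gene of one of its kinase subunits, had the largest decrease of the 41 genes as deposited. Its levels were 4.77, 5.05 and 4.63 FPKM in the WT samples and 2.42, 2.64 and 2.52 FPKM in the Gsdmd-/- samples. The WT values were all above the Gsdmd-/- values, with a wide gap. Ulk2 (chromosome 11, 61775598 to 61855334 in GRCm38.p6) fell to 0.525 of the WT level (log2 change -0.72, SE 0.0634, limma adjusted p = 6.46e-07), and by 0.29 with the trend removed (adjusted p = 0.0027). Its relative Ulk1, the kinase subunit most often studied in autophagy, was at 3.18, 2.78 and 3.06 FPKM in the WT samples and 2.66, 2.96 and 2.90 FPKM in the Gsdmd-/- samples. These groups overlapped, and Ulk1 did not pass the test as deposited (log2 change -0.061, adjusted p = 0.433). It did not pass with the trend removed either, but fell by 0.26 in TPM (adjusted p = 0.0128).

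Rb1cc1, the gene of the scaffold FIP200, went the other way with the trend removed. It was at 2.87, 2.58 and 2.90 FPKM in the WT samples and 1.67, 1.70 and 1.66 FPKM in the Gsdmd-/- samples, so that each WT sample was above each Gsdmd-/- sample. It fell as deposited (log2 change -0.50, limma adjusted p = 2.69e-05) and rose with the trend removed (0.24, adjusted p = 0.00698). Its reference transcript, at 7607 bases, is among the longest of the list. Atg101, a small stabilising subunit with a transcript of 1270 bases, was at 7.0, 7.11 and 6.78 FPKM in the WT samples and 11.1, 10.5 and 10.8 FPKM in the Gsdmd-/- samples. All Gsdmd-/- values were above the WT values. Atg101 rose by 0.56 (adjusted p = 7.94e-07), the largest increase of the 41 genes on that scale, but had a log2 change of 0.058 with the trend removed (adjusted p = 0.315). Atg13, the adaptor that binds the kinase to FIP200, did not pass in either form, at 10.95 ± 0.513 FPKM in WT samples and 10.4 ± 0.320 FPKM in Gsdmd-/- samples (SD, n = 3 each). In TPM Atg13 fell by 0.29 (adjusted p = 3.44e-04). The summed level of the 5 genes was 28.3 to 28.9 FPKM in WT and 27.9 to 28.5 FPKM in Gsdmd-/- samples.

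The lipid kinase complex makes phosphatidylinositol 3-phosphate (PI3P) at the site of initiation. Becn1, its regulatory subunit Beclin 1, was the most abundant of its 5 genes, at 28.2, 30.5 and 30.6 FPKM in the WT samples and 35.04, 35.9 and 34.8 FPKM in the Gsdmd-/- samples. The groups did not overlap. Becn1 rose by 0.24 as deposited (SE 0.0412, limma adjusted p = 2.14e-04) by 0.28 with the trend removed (0.56 with the longest transcript), and had a log2 change of 0.022 in TPM (adjusted p = 0.66). Pik3r4, the gene of the pseudokinase subunit VPS15, was at 6.63, 6.16 and 6.01 FPKM in the WT samples and 4.70, 4.45 and 5.20 FPKM in the Gsdmd-/- samples. Each Gsdmd-/- value was below each WT value. It fell by 0.33 as deposited (adjusted p = 6.56e-04) and by 0.15 with the trend removed (adjusted p = 0.0411).

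Pik3c3, the catalytic subunit VPS34, was at 6.997 ± 0.0874 FPKM in WT samples and 6.50 ± 0.590 FPKM in Gsdmd-/- samples (SD, n = 3 each) and did not pass (limma adjusted p = 0.19). It passed downward when Gsdmd-/- replicate 3 was left out (adjusted p = 0.0385) and in TPM (log2 change -0.31, adjusted p = 0.00152). Atg14 and Uvrag encode subunits that direct the complex to autophagosomes and to endosomes, respectively, and each was lower in every Gsdmd-/- sample than in any WT sample. Atg14 went from 2.42 ± 0.164 to 1.88 ± 0.0709 FPKM (change -0.25, adjusted p = 0.0058), and Uvrag from 23.2 ± 0.0814 to 20.02 ± 0.215 FPKM (change -0.21, adjusted p = 3.78e-04). Neither passed with the trend removed, where the changes were -0.12 and 0.081. Per length, Uvrag was second to Becn1 in every sample, and Atg14 was the least abundant of the complex.

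Growth of the membrane needs lipid, which ATG2 proteins transfer and which the scramblase ATG9A spreads between leaflets. Atg2a was at 4.23, 4.42 and 4.12 FPKM in the WT samples and 5.25, 5.26 and 5.14 FPKM in the Gsdmd-/- samples. Its Gsdmd-/- values were all above its WT values, and it rose by 0.24 as deposited (limma adjusted p = 0.00221) and by 0.38 with the trend removed (adjusted p = 1.30e-04), but did not pass in TPM (log2 change 0.064). Its paralog Atg2b was at 2.63, 2.48 and 2.71 FPKM in the WT samples and 1.73, 1.63 and 1.95 FPKM in the Gsdmd-/- samples. These groups did not overlap either, in the opposite direction, and Atg2b fell by 0.38 as deposited (adjusted p = 3.71e-04), with a log2 change of 0.035 with the trend removed. Atg9a was at 9.82 ± 0.598 FPKM in WT samples and 9.99 ± 0.223 FPKM in Gsdmd-/- samples (SD, n = 3 each). It did not pass as deposited or with the trend removed, and fell by 0.19 in TPM (adjusted p = 0.0101).

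The WIPI proteins read PI3P on the membrane and recruit the conjugation machinery. Wipi1 was at 3.23, 2.94 and 3.03 FPKM in the WT samples and 2.14, 3.13 and 2.97 FPKM in the Gsdmd-/- samples. Replicate 1 of the Gsdmd-/- samples was the low value, and the other 2 lay within the WT range. Wipi1 did not pass as deposited (log2 change -0.13, limma adjusted p = 0.243) and fell by 0.32 with the trend removed (adjusted p = 0.0144). Wipi2, which binds ATG16L1, was at 5.25 ± 0.201 FPKM in WT samples and 5.53 ± 0.132 FPKM in Gsdmd-/- samples (SD, n = 3 each). It did not pass as deposited and rose by 0.30 with the trend removed (adjusted p = 6.23e-04). In all, 3 of the 15 genes of initiation and nucleation rose and 6 fell as deposited, with a median log2 change of -0.096, and 4 rose and 3 fell with the trend removed, with a median of 0.035. In TPM the median was -0.31. Over all tested genes 40.6% rose and 36.9% fell as deposited, and 30.4% and 30.1% with the trend removed.

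The conjugation enzymes form a chain: ATG7 activates the ubiquitin-like proteins, ATG3 and ATG10 pass them on, and the product ATG12-ATG5 binds ATG16L1 to place ATG8 proteins on the membrane. Their changes were small. Atg12, the ubiquitin-like protein itself, had the largest as deposited, at 17.04, 17.2 and 17.04 FPKM in the WT samples and 13.1, 13.2 and 12.7 FPKM in the Gsdmd-/- samples. The WT samples lay close together and above all Gsdmd-/- samples. Atg12 fell by 0.37 (SE 0.0432, limma adjusted p = 7.95e-06) and had a log2 change of 0.056 with the trend removed (adjusted p = 0.305). By the ratio of mean FPKM, the low gene Atg16l2 changed more, to 1.38 times the WT level beside 0.762 times for Atg12.

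Atg3 was the most abundant of the enzymes, at 55.2 ± 0.773 FPKM in WT samples and 51.9 ± 0.720 FPKM in Gsdmd-/- samples (SD, n = 3 each), and fell by 0.089 (limma adjusted p = 0.023). It no longer passed without WT replicate 1 (adjusted p = 0.0686), WT replicate 2 (adjusted p = 0.0501) or Gsdmd-/- replicate 2 (adjusted p = 0.0696). Atg5, the partner of ATG12, fell by 0.17, from 15.5 ± 0.735 to 13.6 ± 0.199 FPKM (adjusted p = 0.00594). With the trend removed, Atg3 and Atg5 did not pass on the median transcript length (adjusted p = 0.0563 and 0.0982) and fell on the longest, by 0.095 (adjusted p = 0.0126) and 0.11 (adjusted p = 0.0362). Atg7, the E1-like enzyme, went from 11.7 ± 0.307 to 12.8 ± 0.114 FPKM and rose by 0.12 (adjusted p = 0.0326) and by 0.19 with the trend removed. As deposited, that call was lost without WT replicate 2 (adjusted p = 0.0693), WT replicate 3 (adjusted p = 0.115) or any of Gsdmd-/- replicates 1, 2 and 3 (adjusted p = 0.0583, adjusted p = 0.0683 and adjusted p = 0.0567).

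Atg16l1, the scaffold of the E3-like complex and a known risk gene of Crohn's disease in people, was at 19.2, 19.6 and 18.7 FPKM in the WT samples and 21.5, 21.8 and 20.9 FPKM in the Gsdmd-/- samples. The Gsdmd-/- samples were all higher. Atg16l1 rose by 0.15 as deposited (limma adjusted p = 0.00516) and by 0.14 with the trend removed, and had a log2 change of -0.060 in TPM (adjusted p = 0.252). Atg16l2, its paralog, was the lowest of the 41 genes, at 1.09, 1.11 and 1.24 FPKM in the WT samples and 1.63, 1.57 and 1.54 FPKM in the Gsdmd-/- samples, with no overlap of the groups. It rose by 0.27 as deposited (adjusted p = 0.00404) and by 0.66 with the trend removed (adjusted p = 1.39e-05), on about 150 fragments per WT library and 208 per Gsdmd-/- library by the depth estimate. Atg10, an E2-like enzyme, was at 4.65 ± 0.662 FPKM in WT samples and 5.34 ± 0.299 FPKM in Gsdmd-/- samples (SD, n = 3 each) and did not pass as deposited (adjusted p = 0.0731). It did without WT replicate 2, with a log2 change of 0.26 (adjusted p = 0.00752).

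The ATG4 proteases prime ATG8 proteins for conjugation and later release them from membranes, and the 4 genes split evenly. Atg4b, the protease with the broadest activity on ATG8 proteins, was at 8.44, 8.83 and 8.14 FPKM in the WT samples and 11.2, 11.6 and 12.1 FPKM in the Gsdmd-/- samples. Atg4d was at 9.78, 9.52 and 8.66 FPKM in the WT samples and 11.6, 11.5 and 11.8 FPKM in the Gsdmd-/- samples. For both genes every Gsdmd-/- sample was above every WT sample. Atg4b (chromosome 1, 93754905 to 93789606) rose by 0.41 (SE 0.0525, limma adjusted p = 1.68e-05) and by 0.59 with the trend removed (adjusted p = 2.22e-06). Atg4d rose by 0.29 (adjusted p = 3.39e-04) and by 0.52 with the trend removed, but not in TPM (log2 change 0.094, adjusted p = 0.174).

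Atg4a, which favours the GABARAP branch, was at 10.1, 8.94 and 9.05 FPKM in the WT samples and 7.24, 7.36 and 6.31 FPKM in the Gsdmd-/- samples. Atg4c was at 4.78, 4.29 and 3.92 FPKM in the WT samples and 2.69, 2.94 and 2.79 FPKM in the Gsdmd-/- samples. Here each Gsdmd-/- sample was below each WT sample. Atg4a (chromosome X, 140953845 to 141164194) fell by 0.38 (SE 0.0675, limma adjusted p = 2.61e-04) and by 0.26 with the trend removed (adjusted p = 0.00599). Atg4c (chromosome 4, 99189159 to 99297258) fell by 0.48 (adjusted p = 6.68e-05) and by 0.23 with the trend removed (adjusted p = 0.0144). In WT samples Atg4a, Atg4b and Atg4d stood at similar levels per length, 9.36, 8.47 and 9.32 FPKM, while in Gsdmd-/- samples Atg4b and Atg4d stood at 11.6 and 11.6 FPKM beside 6.97 FPKM for Atg4a.

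The ATG8 family, the proteins that coat the autophagosome, held the most abundant transcript of the list, that of Gabarap. The RefSeq promoter windows (250 bases before to 50 after the transcription start, GRCm38.p6) of Map1lc3b (chr8:121590188-121590487, plus strand) and Gabarap (chr11:69991120-69991419, plus strand) are shown because these genes rose under each scaling tried. Capitals mark matches to the searched motifs, TGACNNNGC in Map1lc3b and ACGTG on the opposite strand in Gabarap.
Map1lc3b promoter: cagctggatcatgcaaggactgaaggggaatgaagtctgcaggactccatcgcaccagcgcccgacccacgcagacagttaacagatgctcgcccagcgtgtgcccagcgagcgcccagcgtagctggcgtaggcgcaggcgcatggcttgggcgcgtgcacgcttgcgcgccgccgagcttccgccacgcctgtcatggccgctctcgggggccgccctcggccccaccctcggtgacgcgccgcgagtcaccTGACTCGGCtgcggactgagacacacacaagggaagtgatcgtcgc
Gabarap promoter: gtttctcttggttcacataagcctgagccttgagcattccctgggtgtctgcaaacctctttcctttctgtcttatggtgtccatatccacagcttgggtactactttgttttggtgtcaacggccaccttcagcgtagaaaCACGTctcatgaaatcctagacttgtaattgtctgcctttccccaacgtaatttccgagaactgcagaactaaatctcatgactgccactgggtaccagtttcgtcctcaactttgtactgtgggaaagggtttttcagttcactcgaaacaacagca

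Gabarap, the leading GABARAP-branch gene, was at 495, 522 and 504 FPKM in the WT samples and 712, 719.7 and 668 FPKM in the Gsdmd-/- samples. Map1lc3b, the LC3 form whose lipidation is the usual marker of autophagy, was at 52.3, 54.01 and 54.8 FPKM in the WT samples and 75.9, 80.1 and 76.7 FPKM in the Gsdmd-/- samples. In both, all Gsdmd-/- samples were well above all WT samples. Gabarap (chromosome 11, 69991370 to 69994949) rose to 1.38 times the WT level (log2 change 0.46, SE 0.0325, limma adjusted p = 9.21e-08), and by 0.17 on the log2 scale with the trend removed (adjusted p = 1.25e-04). Map1lc3b (chromosome 8, 121590438 to 121598760) rose to 1.44 times the WT level (log2 change 0.52, SE 0.0345, adjusted p = 5.80e-08), and by 0.41 with the trend removed (adjusted p = 1.17e-06).

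The other ATG8 genes depended on the trend. Map1lc3a, the minor LC3 form here, was at 9.04, 10.1 and 8.99 FPKM in the WT samples and 14.02, 14.3 and 13.7 FPKM in the Gsdmd-/- samples. The groups did not overlap, and it rose by 0.53 as deposited (limma adjusted p = 2.09e-06), but changed by -0.078 without the trend (adjusted p = 0.118). Its transcript of 1112 bases and 63.1% GC is the most GC-rich of the list. Gabarapl1 was at 24.2 ± 1.12 FPKM in WT samples and 26.7 ± 1.996 FPKM in Gsdmd-/- samples (SD, n = 3 each), with overlapping groups. It rose by 0.14 (adjusted p = 0.0393), a call that was lost without any of WT replicates 1 and 3 and Gsdmd-/- replicates 2 and 3 (adjusted p from 0.0981 to 0.171), and was -0.12 with the trend removed (adjusted p = 0.0649). That decrease passed with the longest transcript (adjusted p = 0.0346) and with the replicate number as a block (adjusted p = 0.0281). Gabarapl2 was at 44.3 ± 1.11 FPKM in WT samples and 43.1 ± 1.69 FPKM in Gsdmd-/- samples (SD, n = 3 each) and did not pass as deposited (adjusted p = 0.378), while with the trend removed it fell by 0.11 (adjusted p = 0.0217).

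Summed over the 5 genes, ATG8 transcripts reached 624, 657 and 634 FPKM in the WT samples and 868, 888 and 827 FPKM in Gsdmd-/- samples. Gabarap alone made up 79.2% to 79.5% of that sum in WT and 80.7% to 81.9% in Gsdmd-/- samples. The share of Gabarapl2 was 6.79% to 7.15% in WT and 4.88% to 5.07% in Gsdmd-/- samples, and that of Map1lc3b 8.23% to 8.64% and 8.73% to 9.27%. The makeup of the family thus kept the same order in all 6 samples, Gabarap first, then Map1lc3b, Gabarapl2, Gabarapl1 and Map1lc3a. Over the 16 genes of conjugation, 9 rose and 5 fell as deposited (median 0.15), and 8 rose and 3 fell with the trend removed (median 0.10), while in TPM the median was -0.069. The shares over all tested genes were 40.6% risen and 36.9% fallen as deposited, and 30.4% and 30.1% with the trend removed.

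Cargo receptors bind cargo, in many cases tagged with ubiquitin, on one side and ATG8 proteins on the other. Sqstm1, the gene of p62, was the second most abundant of the 41 genes, at 231, 243 and 233 FPKM in the WT samples and 261, 257 and 257 FPKM in the Gsdmd-/- samples. Each Gsdmd-/- sample was above each WT sample, by a narrow margin. Sqstm1 rose by 0.13 as deposited (SE 0.0279, limma adjusted p = 9.33e-04) and fell by 0.064 with the trend removed (adjusted p = 0.0228) and by 0.090 in TPM (adjusted p = 0.00714). With the longest transcript taken for its length, the change without the trend was -0.014 (adjusted p = 0.616). Its direction thus depended on the scale, and its fall without the trend on the transcript taken.

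Tax1bp1, a receptor that recruits autophagy to protein aggregates and microbes, was at 64.6, 58.8 and 63.2 FPKM in the WT samples and 80.4, 79.03 and 78.4 FPKM in the Gsdmd-/- samples. The groups did not overlap. Tax1bp1 (chromosome 6, 52713692 to 52766780) rose by 0.35 (SE 0.0379, limma adjusted p = 4.39e-06), by 0.66 with the trend removed (adjusted p = 6.43e-08) and by 0.13 in TPM (adjusted p = 0.0121). Calcoco1, a receptor of the same protein family, was at 5.93, 5.72 and 5.87 FPKM in the WT samples and 7.15, 7.67 and 8.28 FPKM in the Gsdmd-/- samples. All its Gsdmd-/- values were higher. It rose by 0.35 as deposited (adjusted p = 2.43e-04) and by 0.21 with the trend removed, but not in TPM (log2 change 0.16, adjusted p = 0.0526). Nbr1, which acts with p62 on aggregates, went from 11.2 ± 0.566 to 9.01 ± 0.518 FPKM without overlap and fell by 0.29 as deposited (adjusted p = 6.45e-04), with a log2 change of 0.022 with the trend removed. Optn, the gene of optineurin, which acts in removing mitochondria and bacteria, was at 10.02 ± 0.268 FPKM in WT samples and 10.2 ± 0.586 FPKM in Gsdmd-/- samples (SD, n = 3 each). It did not pass as deposited or with the trend removed, and fell by 0.19 in TPM (adjusted p = 0.0159). As deposited, 3 of the 5 receptors rose and 1 fell (median 0.13), where 40.6% of all tested genes rose and 36.9% fell. Their median was 0.022 once the trend was removed and -0.090 in TPM.

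Mitophagy factors include receptors in the outer mitochondrial membrane, Bnip3, Bnip3l (NIX) and Fundc1, and the kinase Pink1, which labels damaged mitochondria. Bnip3 fell under each scaling tried, and its promoter window (chr7:138909457-138909756, minus strand) is shown for that reason. Capitals mark the palindrome CACGTG, the core of the motif bound by TFEB, which holds ACGTG, a core sequence of the hypoxia response element, on both strands.
Bnip3 promoter: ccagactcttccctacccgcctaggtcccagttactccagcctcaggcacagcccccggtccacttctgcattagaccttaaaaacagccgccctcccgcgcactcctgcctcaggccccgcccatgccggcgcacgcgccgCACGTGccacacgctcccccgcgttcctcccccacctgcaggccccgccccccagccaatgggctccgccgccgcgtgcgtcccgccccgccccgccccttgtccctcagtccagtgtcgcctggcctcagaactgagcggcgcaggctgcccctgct

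Bnip3 was at 18.3, 19.5 and 20.04 FPKM in the WT samples and 13.01, 14.7 and 15.3 FPKM in the Gsdmd-/- samples. All 3 Gsdmd-/- values were below the WT values. Bnip3 (chromosome 7, 138890836 to 138909506) fell by 0.41 (SE 0.0599, limma adjusted p = 5.58e-05), by 0.36 with the trend removed (adjusted p = 4.66e-04) and by 0.63 in TPM (adjusted p = 2.63e-07). Its paralog Bnip3l was at 17.3, 15.6 and 16.2 FPKM in the WT samples and 17.9, 18.3 and 17.2 FPKM in the Gsdmd-/- samples. These groups overlapped slightly. Bnip3l did not pass as deposited (log2 change 0.11, adjusted p = 0.0538) and rose by 0.42 with the trend removed (adjusted p = 1.88e-05). As deposited it passed without WT replicate 1 (adjusted p = 0.0212) or Gsdmd-/- replicate 3 (adjusted p = 0.0394).

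Fundc1 was at 10.4, 11.3 and 10.9 FPKM in the WT samples and 8.34, 10.3 and 8.74 FPKM in the Gsdmd-/- samples. Gsdmd-/- replicate 2 came close to the lowest WT sample, but the groups did not overlap, and Fundc1 fell by 0.23 (limma adjusted p = 0.00961). With the trend removed the value depended on which transcript was taken for its length, -0.60 with the median of 597 bases and -0.086 with the longest transcript (adjusted p = 0.326). Pink1 was at 7.25 ± 0.609 FPKM in WT samples and 8.14 ± 0.377 FPKM in Gsdmd-/- samples (SD, n = 3 each), with overlapping groups. It rose by 0.15 (adjusted p = 0.0489) just inside the threshold and did not pass without WT replicate 1 (adjusted p = 0.151), WT replicate 2 (adjusted p = 0.151), Gsdmd-/- replicate 1 (adjusted p = 0.122) or Gsdmd-/- replicate 3 (adjusted p = 0.126). Without the trend the change was -0.14 (adjusted p = 0.082), which passed with the replicate number as a block (adjusted p = 0.0451). In the mitophagy group 1 gene rose and 2 fell as deposited, where 40.6% of all tested genes rose and 36.9% fell. The median of the group was -0.060, and -0.25 with the trend removed (-0.12 with the longest transcript).

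Epg5, which tethers autophagosomes to lysosomes before they fuse, was at 2.06, 2.11 and 2.2 FPKM in the WT samples and 1.33, 1.41 and 1.56 FPKM in the Gsdmd-/- samples. Each WT sample was above each Gsdmd-/- sample. Epg5 fell by 0.36 as deposited (limma adjusted p = 4.85e-04) and had a log2 change of 0.081 with the trend removed (adjusted p = 0.286). Its reference transcript is the longest of the list, at 9660 bases.

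Transcript length ordered many of these changes. Of the 8 members with transcripts of up to 2000 bases, 4 rose and 2 fell as deposited, and of the 12 with at least 4500 bases, 3 rose and 7 fell. Over all tested genes, 74.9% of the short and 7.77% of the long genes rose, and 8.31% and 76.0% fell. The Spearman correlation of the log2 change with length was -0.28 over the 41 members and -0.65 over 9853 genes, and with GC content 0.52 and 0.50, given as descriptions across genes that share the same 6 libraries. Long members that rose as deposited, against the course of genes of their length, were Atg2a, Atg4d and Atg16l2, and short members that fell were Bnip3 and Fundc1. Removing the trend left 27 members with the same sign and turned 14. Of the 31 members called as deposited, 17 had the same call with the trend removed, 12 had none, and Rb1cc1 and Sqstm1 had the opposite call, that of Sqstm1 with the median transcript length only. Wipi1, Wipi2, Atg10, Gabarapl2 and Bnip3l passed with the trend removed and not as deposited, though Atg10 no longer did with the longest transcript (adjusted p = 0.0673). The shares of all tested genes that kept, lost, gained or turned a call or sign were not computed.

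**Figure D2:**
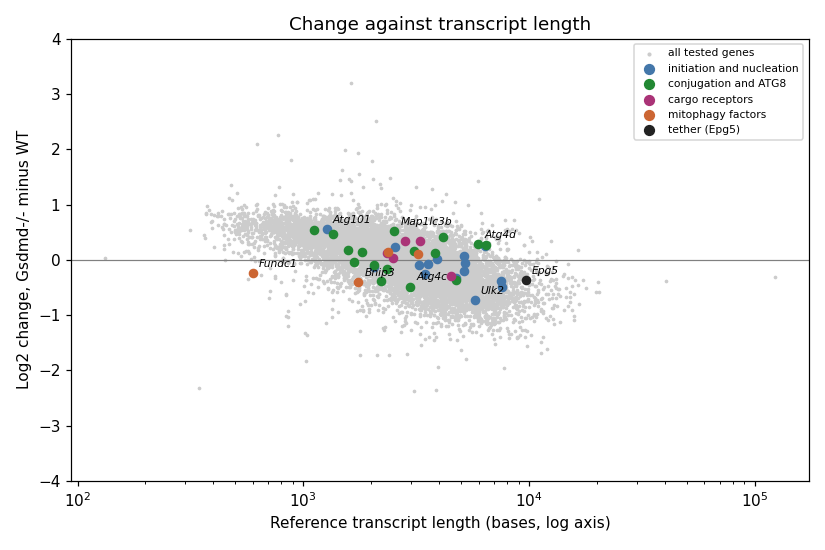
Log2 change of each tested gene (Gsdmd-/- minus WT, vertical axis) against the length of its reference transcript in bases (log axis). Grey points are the tested genes with a known length and coloured points the 41 members by role. The cloud slopes downward, and Atg101 lies at 0.56 with a short transcript and Ulk2 at -0.72 with a long one, while Bnip3 at -0.41 and Atg4d at 0.29 lie on the far sides of it.

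**Figure D3:**
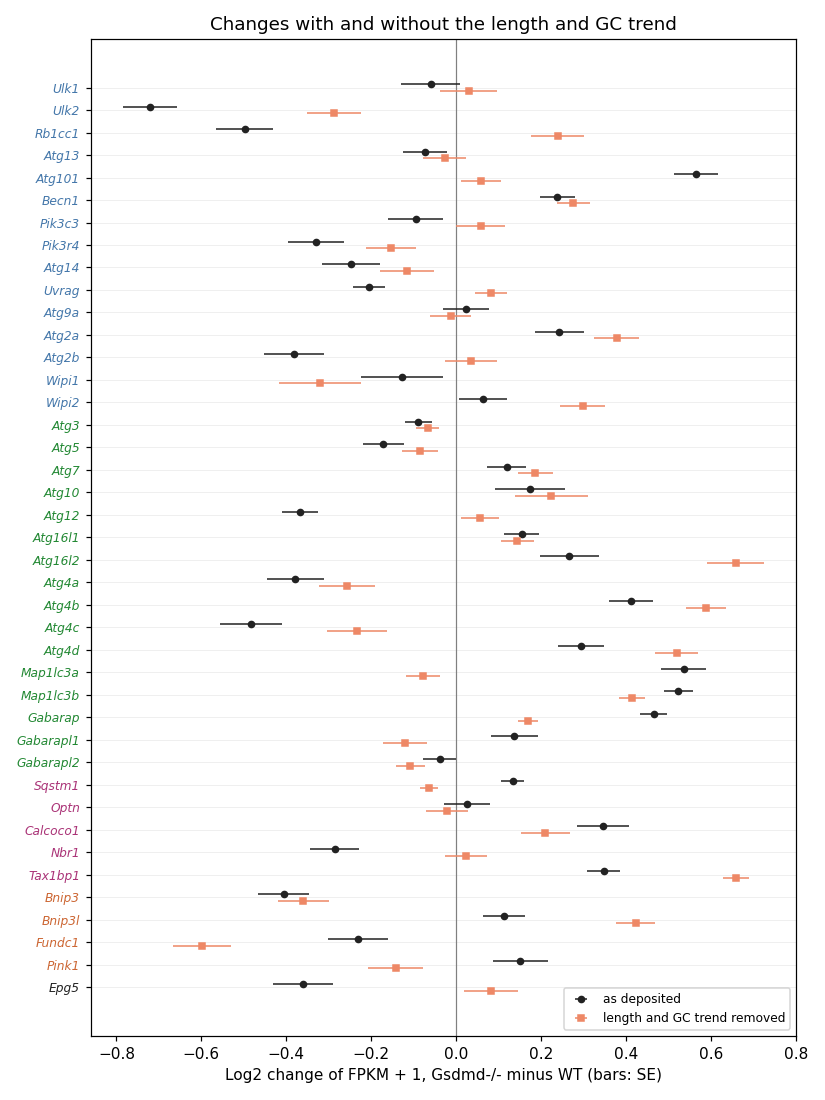
Log2 change of each member, Gsdmd-/- minus WT, as deposited (black circles) and after removal of the length and GC trend (orange squares), with bars for the SE. Symbols of Rb1cc1, at -0.50 and 0.24, lie on opposite sides of 0, while those of Bnip3, Map1lc3b and Tax1bp1 stay on their side.

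Ratios of related genes within a sample do not depend on how a library is scaled, although they still carry the difference in length between the genes. Of 9 pairs compared, 7 did not overlap between the groups, where 79.4% of all single genes tested did not overlap as deposited. The share over other gene pairs was not computed. Ulk1 over Ulk2 was 0.550 to 0.667 in WT and 1.10 to 1.15 in Gsdmd-/- samples, so that the more abundant kinase transcript per length was Ulk2 in every WT sample and Ulk1 in every Gsdmd-/- sample. Bnip3 over Bnip3l was 1.06 to 1.25 in WT and 0.727 to 0.888 in Gsdmd-/- samples, which also changed the order of that pair. Atg4b over Atg4a went from 0.836 to 0.988 in WT to 1.54 to 1.91 in Gsdmd-/- samples. The order of Atg4a and Atg4b was thus exchanged as well. These orders are those of the deposited values. With the trend removed only the differences given below were computed, and the order of levels was not tested.

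Atg4d over Atg4c was 2.05 to 2.22 in WT and 3.91 to 4.32 in Gsdmd-/- samples, a mean difference of 0.94 on the log2 scale, the largest of the 9 pairs as deposited. Atg2a over Atg2b differed by 0.86, and Atg16l1 over Atg16l2 by -0.30. Each of the 6 pairs named so far, and Gabarapl1 over Gabarapl2, had the smallest p that 3 samples against 3 can give in a two-sided exact permutation test, 0.1 (adjusted over the 9 pairs, 0.129). Within the ATG8 family, Gabarap over Map1lc3b was 9.20 to 9.66 in WT and 8.71 to 9.38 in Gsdmd-/- samples, and the groups overlapped (exact permutation p = 0.2). With the trend removed, the difference was taken between the log2 changes of the 2 genes on log2(FPKM + 1), which understates low genes. It is thus not on the scale of the ratios above, and part of any move between the 2 is one of scale. This difference was largest for Atg4b over Atg4a (0.85), followed by Bnip3 over Bnip3l (-0.78) and Atg4d over Atg4c (0.75). It was then -0.51 for Atg16l1 over Atg16l2, 0.34 for Atg2a over Atg2b, 0.32 for Ulk1 over Ulk2 and -0.24 for Gabarap over Map1lc3b.

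**Figure D4:**
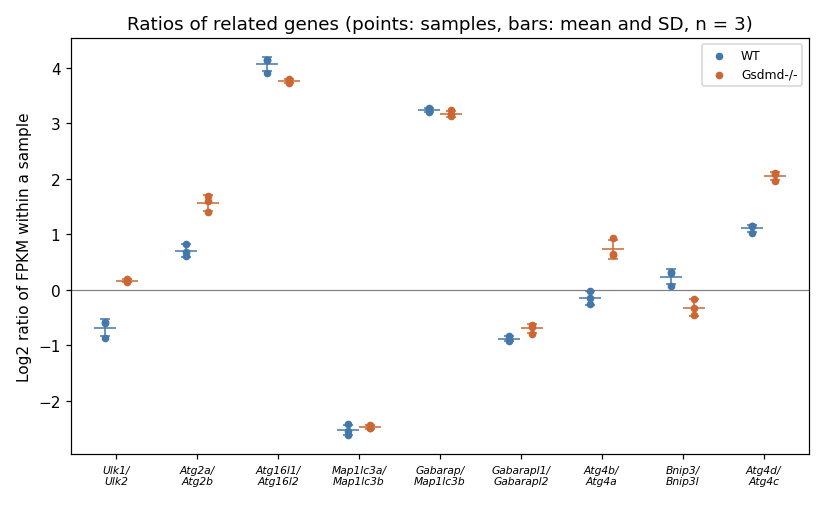
Log2 ratio of FPKM between related genes within each sample, WT in blue and Gsdmd-/- in orange, with the mean and SD of 3 samples. Ratios of Ulk1 to Ulk2, Atg4b to Atg4a and Bnip3 to Bnip3l cross 0 between the groups, whereas Map1lc3a to Map1lc3b overlaps.

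Genes around the core machinery were read from lists of partners, whose counts stand beside 40.6% risen and 36.9% fallen over all genes as deposited, and 30.4% and 30.1% without the trend. Of 23 genes of nutrient signalling and the TFEB factors, which switch autophagy and lysosome genes on, 4 rose and 12 fell as deposited (median -0.16), and 1 rose and 12 fell with the trend removed. Mitf, a relative of TFEB, fell from 32.01 ± 1.02 to 16.6 ± 0.455 FPKM, by 0.91 on the log2 scale (limma adjusted p = 4.50e-09), and by 0.93 once the trend was removed. Fnip1, a partner of folliculin in amino acid sensing, fell by 1.11 and Prkaa1, a catalytic subunit of the energy sensor AMPK, by 0.80, and with the trend removed by 0.42 and 0.27. Of 15 tested initiation and phagophore regulators, 3 rose and 11 fell as deposited and 4 rose and 7 fell with the trend removed. Tbk1, the kinase that phosphorylates optineurin and p62, fell from 55.4 ± 2.46 to 38.01 ± 2.04 FPKM, the adaptor Wdfy3 from 6.86 ± 0.227 to 3.21 ± 0.198 FPKM and Trp53inp2 from 15.003 ± 0.482 to 10.2 ± 0.457 FPKM, and all 3 also fell with the trend removed.

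Of 15 genes of fusion with the lysosome, 4 rose and 5 fell as deposited, and 7 rose and 4 fell with the trend removed. Lamp2, a lysosomal membrane protein, fell from 268 ± 3.52 to 192 ± 1.25 FPKM and the SNARE gene Snap29 from 33.6 ± 0.561 to 24.5 ± 1.24 FPKM, both also with the trend removed. The SNARE gene Vamp8 rose from 176 ± 5.38 to 264 ± 4.88 FPKM, by 0.58 on the log2 scale, and did not pass after removal of the trend (-0.0087). Of 19 other mitophagy genes, 7 rose and 8 fell as deposited and 5 rose and 5 fell with the trend removed. Tomm7, a subunit of the outer membrane translocase that retains PINK1, rose from 19.9 ± 0.720 to 32.2 ± 1.10 FPKM, and Usp8, a deubiquitinase, fell from 32.8 ± 1.06 to 20.0 ± 0.941 FPKM, both also with the trend removed. Fkbp8, a mitophagy receptor, rose from 85.9 ± 3.58 to 124 ± 4.22 FPKM as deposited and did not pass with the trend removed (0.058).

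Among 11 other receptors of selective autophagy, 3 rose and 6 fell as deposited (median -0.19), and 1 rose and 5 fell with the trend removed. Ncoa4, the receptor for ferritin, fell from 68.9 ± 1.36 to 41.5 ± 2.09 FPKM (change -0.72, limma adjusted p = 1.66e-08; -0.40 without the trend). Rtn3, a receptor for endoplasmic reticulum tubules, fell from 106 ± 3.16 to 77.1 ± 1.64 FPKM. Sec62, a receptor in recovery from endoplasmic reticulum stress, rose from 19.2 ± 0.811 to 29.9 ± 1.21 FPKM (log2 change 0.61, and 1.0 with the trend removed).

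Promoter windows were matched for 33 of the 41 members, in 37 windows, and not for Atg12, Atg16l1, Becn1, Bnip3l, Epg5, Map1lc3a, Pik3c3 and Rb1cc1. The palindrome CACGTG stood in windows of Atg14, Atg3, Atg5, Atg7 and Bnip3, 13.5% of the member windows and 7.15% of all 32851 windows of the same length. The shorter ACGTG, searched on both strands and contained in CACGTG, stood in 16 of the 37 member windows, 43.2% beside 19.6% of all windows. TGACNNNGC, the core of the antioxidant response element, stood in windows of Atg13, Map1lc3b, Tax1bp1 and Ulk2, 10.8% beside 12.4%. The median GC content was 60.0% in member windows and 52.7% in all windows, whose genes include many not expressed in macrophages.

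Some values could include reads of other loci, since no source used here gives the use of strand or the treatment of reads with several matches. Atg4a, Bnip3, Bnip3l and Rb1cc1 have near-identical copies elsewhere, of at least 90% identity over at least 30% of the transcript. The copy Atg4a-ps covers 96.0% of Atg4a at 99.3% identity, the noncoding gene AC160336.1 covers 94.2% of Bnip3 at 98.3%, beside 4 pseudogenes that cover less of it, and the pseudogene Gm13961 covers 62.7% of Rb1cc1. Exons of Becn1 overlap those of Cntd1 on the opposite strand over 3104 bases, those of Atg4d overlap Kri1 over 1405 bases and those of Uvrag a noncoding antisense gene over 1589 bases. Shorter overlaps, of up to 580 bases, concern Sqstm1, Gabarapl1, Rb1cc1, Bnip3, Atg2b and a few others, and Atg9a shares 1832 bases with a transcript on its own strand. The levels of these genes are uncertain to that extent.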

How the data were processed

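RNA-seq of 6 samples, 3 WT and 3 Gsdmd-/-, was read from the deposited tables of 1 value per gene. The deposited values are taken as FPKM, since their low values step with 1 over transcript length; no source used here states the unit. Reads were aligned with Bowtie2 2.2.5 to GRCm38.p6, per the submitters' processing notes. The sources used here give no quantification program, annotation, strand use or filter. Gene symbols that had turned into dates were repaired through their gene IDs (25 rows), and 16950 IDs matched the RefSeq table.

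Genes with at least 1 FPKM in at least 3 samples were tested on log2(FPKM + 1) with limma 3.58.1 in R 4.3.3 (trended, robust variance, Benjamini-Hochberg adjustment over 10005 genes, threshold 0.05). Replicate numbers did not enter the fit. For values with the trend removed, a smooth function of length and GC content was fitted with mgcv 1.9.3 to each sample's deviation from the gene means and subtracted, for 9853 genes with a reference transcript. Paralog ratios were compared with two-sided exact permutation tests, for which 3 samples against 3 cannot go below 0.1. Depth, estimated at 20200000 to 20700000 fragments per library, limits genes with few fragments most, through a low FPKM, a short transcript or both. The procedure was checked on simulated data. Alternatives were TPM and median-ratio scaling, pseudocount 0.1, no filter, a filter of 5 FPKM, a replicate block, the longest transcript (chosen after seeing the data) and leaving out each sample. All members are described, and of each partner list the 3 genes with the smallest p are named. The members and gene lists were chosen with earlier results of these data known.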

Additional observations from a re-analysis of the deposited data

How the results depend on the processing

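In TPM, 6 members rose and 23 fell, and 2498 of all genes rose, beside 4059 as deposited. Ulk1, Atg13, Pik3c3, Atg9a, Wipi1, Gabarapl2 and Optn, not called as deposited, fell in TPM, as did 51.0% of all tested genes. The median log2 change in TPM was -0.19 over the members, -0.31 for initiation, -0.069 for conjugation, -0.090 for receptors, -0.28 for mitophagy factors. Members whose sign turned in TPM had log2 changes of Atg9a -0.19, Wipi2 -0.14, Atg7 -0.091, Atg10 -0.012, Atg16l1 -0.060, Gabarapl1 -0.079, Sqstm1 -0.090, Optn -0.19, Bnip3l -0.10 and Pink1 -0.049. Median-ratio scaling turned Atg9a -0.011 and Optn -0.0090, and gave medians of -0.011 for the members and 0.095 for receptors. It left 13 risen, Atg7, Gabarapl1 and Pink1 (adjusted p 0.107, 0.117 and 0.112) being lost, and 3798 of all genes rose on that scale.

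With the trend removed, 9 members fell, the median was 0.035 over the members, 0.035 for initiation, 0.10 for conjugation, 0.022 for receptors, -0.25 for mitophagy factors, and the turned members were Ulk1 0.029, Rb1cc1 0.24, Pik3c3 0.058, Uvrag 0.081, Atg9a -0.013, Atg2b 0.035, Atg12 0.056, Map1lc3a -0.078, Gabarapl1 -0.12, Sqstm1 -0.064, Optn -0.022, Nbr1 0.022, Pink1 -0.14 and Epg5 0.081. The ratio differences of Map1lc3a to Map1lc3b and of Gabarapl1 to Gabarapl2 turned to -0.49 and -0.013. With the longest transcript the medians were 0.014 over the members, 0.014 for initiation, 0.069 for conjugation, 0.012 for receptors, -0.12 for mitophagy factors, and the turned members were Ulk1 0.014, Rb1cc1 0.21, Pik3c3 0.019, Uvrag 0.049, Atg9a -0.021, Atg2b 0.014, Atg12 0.021, Map1lc3a -0.092, Gabarapl1 -0.14, Sqstm1 -0.014, Optn -0.039, Nbr1 0.012, Pink1 -0.15 and Epg5 0.060.

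The filter of 5 FPKM tested 32 members, of which 15 rose and 9 fell, and each of the 32 kept its call. Of all genes, 3258 rose and 2620 fell with this filter. The medians were 0.12 over the members and 0.023 for initiation. Leaving out each sample gave 14 to 15 members that rose and 14 to 16 that fell, beside 3791 to 3972 and 3361 to 3660 of all genes. Medians ran from -0.011 to 0.028 over the members, -0.15 to -0.083 for initiation, 0.12 to 0.16 for receptors and -0.11 (without Gsdmd-/- replicate 2) to -0.034 (without Gsdmd-/- replicate 1) for mitophagy factors. Over these fits Atg9a ran from -0.011 (without WT replicate 1) to 0.066, and Optn from -0.011 (without Gsdmd-/- replicate 3) to 0.064. The cause of these shifts was not tested.

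Deviations of same-numbered samples correlated at -0.082, 0.13 and 0.014, and those of the other pairs from -0.17 to 0.16. WT 1 correlated best with Gsdmd-/- replicate 3, whereas WT 2 and WT 3 did so with the replicate of their own number. Correlations this weak cannot show whether the replicate numbers pair the samples. With the replicate number as a block, 17 members rose and 15 fell, Atg10 being the one gained (adjusted p = 0.0463), beside 4095 and 3706 of all genes. With the block and the trend removed, 15 rose and 10 fell, beside 2977 and 2952 of all genes. Pik3r4 was lost, Gabarapl1 and Pink1 were called as fallen, and the log2 changes and medians were those with the trend removed. Pseudocount 0.1 changed no member's call, and without a filter Gabarapl1 and Pink1 were no longer called. Depth limits most the members with the fewest fragments. By the depth estimate these included Fundc1, at its median length of 597 bases, with about 122 per WT library and 103 per Gsdmd-/- library. Wipi1 had about 126 and 113, Atg10 146 and 168, Atg14 168 and 131, and Atg16l2 150 and 208.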
